A study of Mus musculus with 6 samples.

Results

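Signatures that hold a CpG dinucleotide, a C followed by a G on the same strand, were followed in 6 mouse libraries measured by massively parallel signature sequencing (MPSS). They were taken from the signature column of the raw count files as all signatures with a total count of 10 or more over all runs and libraries and at least 1 CpG starting at base 5 to 19. The rule gave 8137 signatures, 26.2% of the 31075 with a total count of 10 or more. In MPSS the cDNA is cut at GATC, the site of the enzyme DpnII, 20 bases from the last such site before the poly(A) tail are cloned onto microbeads, and a signature's count is its number of beads. The 3 BLK.CL4 libraries came from total RNA of BLK.CL4, a line of embryonic mouse fibroblasts, and the 3 liver libraries from total RNA of mouse liver. All 6 are of the C57BL6 strain per the labels, which name no treatment and give neither age nor sex. Nothing in the labels tells apart separate cultures or mice from repeats of 1 RNA, so that p-values reflect only how these libraries vary, which may be technical. Signatures were not matched to transcripts here, so no gene is named and neither source was checked against marker genes.

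CpG is the main site of DNA methylation in mammals. A methylated cytosine is prone to deamination to thymine, and over evolution this has turned CpG into TpG on one strand and CpA on the other, so that most of the genome is poor in CpG. Stretches that stay unmethylated in the germ line, above all CpG islands at gene starts, keep more of it, and coding sequence keeps more than introns or 3' untranslated sequence. GpC holds the same bases in the other order, is not a usual target of methylation in mammals, and serves here as the control for base composition.

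The signatures below carry the largest levels and differences, or the most CpG. Each is written 5' to 3', from the GATC onward, with each CpG that starts at base 5 to 19 in capitals. L marks those with the highest mean level in liver or the largest change toward liver, and B the same for BLK.CL4. S1 was among the 4 highest of those with at least 10 counts per 1000000 counts of a library (CPM) in all 6 libraries, together with B1, B2 and B5. M marks 4 of the 7 signatures with 5 CpG, the most of any, taken by their mean CPM.
L1: gatccctggtggaaaggCGg
L2: gatcttccaggccCGcctca
L3: gatcttccaggccCGcctcc
L4: gatccctggtggaagggCGg
L5: gatctgcagaagCGtctggg
L6: gatcacctCGgatgatggct
L7: gatcaaccactgcaaattCG
B1: gatccatctgcatttgCGgc
B2: gatcagcaagcaggagtaCG
B3: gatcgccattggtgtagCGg
B4: gatccCGCGaggccCGgaag
B5: gatcaccatttcCGactgtg
B6: gatcagCGcctccagttcct
B7: gatcctacCGctgtgactgc
B8: gatcctcCGtacacagaatt
B9: gatcgccattggtgtagCGa
B10: gatcgagctcagaggCGaag
S1: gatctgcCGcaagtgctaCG
M1: gatcCGCGgCGcCGCGcagc
M2: gatctCGcCGcCGcCGcCGc
M3: gatcCGaCGaCGcaCGCGtc
M4: gatcCGCGCGtgCGCGctaa
L1 to L7 hold 1 CpG each, B4 holds 3, and M1 to M4 hold 5 each.

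Library totals ran from 1724799 to 2440849 counts, and 3 counts amounted to 1.23 to 1.74 CPM. Each library comprised 4 runs of 373551 to 757941 counts, 2 of run type T and 2 of run type TH in the column headings. Runs carry a day in the labels, and days with runs of both groups hold too few libraries for a comparison within a day. CpG signatures counted in a library numbered 3755, 4789 and 4101 in BLK.CL4 (replicates 1 to 3), beside 1916, 2692 and 2857 in the liver replicates. They formed 25.8% to 28.3% of the signatures of a BLK.CL4 library and 24.7% to 28.2% of those of a liver library, counting only signatures with a total count of 10 or more. At the lower limit of the rule, 320 CpG signatures had a total count of exactly 10, and 375 with a count of 9 fell outside. All CpG signatures left out for low counts held 0.790% of the counts of CpG signatures.

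CpG occurred at about 1 in 3 of its expected frequency in every library, whereas GpC was close to expectation. The expected number was the product of the frequencies of C and of G at the adjoining positions among the same signatures, summed over the 15 start positions, with every signature counted once. Observed over expected CpG was 0.347, 0.328 and 0.361 in BLK.CL4 (replicates 1 to 3), beside 0.339, 0.316 and 0.341 in the liver replicates. For GpC the values lay between 0.945 and 0.972. CpG was thus the lower of the pair in all 6 libraries, with a mean log2 ratio of CpG to GpC of -1.51 ± 0.0577 (SD, n = 6; exact two-sided sign-flip permutation test, p = 0.0312, the smallest that 6 libraries can give). The libraries share many signatures and are not independent samples of sequence.

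With each signature counted once, the CpG content of liver and BLK.CL4 overlapped between their libraries. Group means of observed over expected CpG were 0.332 ± 0.0141 in liver and 0.345 ± 0.0165 in BLK.CL4 (SD, n = 3 each), a difference of -0.0133 with overlapping values. The exact two-sided permutation test gave p = 0.4, and 3 against 3 libraries cannot go below 0.1. With a total count of at least 100 the groups did not overlap, at 0.347, 0.334 and 0.334 in liver and 0.353, 0.351 and 0.355 in BLK.CL4 (difference -0.0147, exact permutation p = 0.1). For GpC the means were 0.961 ± 0.0137 and 0.968 ± 0.0061 (exact permutation p = 0.5). Weighted by counts, CpG stood higher, at 0.372 ± 0.0216 in liver and 0.420 ± 0.0302 in BLK.CL4 (difference -0.0478, exact permutation p = 0.2). Signature L1 alone carried much of the liver value. Without it the difference was -0.115, given without a test, since L1 was picked for its liver level. Without palindromes but with L1 kept the direction turned, with 0.371 ± 0.0319 in liver and 0.339 ± 0.0173 in BLK.CL4 (exact permutation p = 0.2). L1 holds no palindrome, and its part in this turn was not tested.

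Among all 16 dinucleotides CpG was the rarest relative to expectation. Over the 31075 distinct signatures 9856 CpG were observed, 0.336 of the expected number, against 0.557 for TpA and 0.706 for ApT, the next lowest. TpG, at 1.34, and CpA, at 1.27, the products of CpG deamination on either strand, were the highest of the 16. CpT and ApG followed closely at 1.25 and 1.26, so the excess was not limited to TpG and CpA. GpC stood at 0.963. In the 6 libraries TpG ranged from 1.34 to 1.38 and CpA from 1.27 to 1.29. TpG was 1.36 ± 0.0143 in liver and 1.34 ± 0.0075 in BLK.CL4, without overlap (exact permutation p = 0.1).

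The junction with the enzyme site was also short of G. Base 4 of every signature is the C of GATC, so that a G at base 5 completes a CpG that the rule did not count. G made up 5.51% of the bases at position 5 (1713 signatures), against 21.6% to 27.0% at positions 6 to 20. That is 0.226 of the mean over positions 6 to 20. C made up 38.1% of the bases at position 5, and a fixed C at base 4 leaves no GpC control there. Base 5 was G in 5.59%, 5.33% and 6.80% of signatures in BLK.CL4 (replicates 1 to 3), beside 5.02%, 4.87% and 5.59% in liver, so every library showed it. Without palindromes, as defined further on, the share was 4.77%, or 0.20 of the mean at the other positions. Within the counted window, CpG stayed below GpC at each of the 15 start positions. Its observed over expected value ran from 0.262 at base 12 to 0.415 at base 19, and that of GpC from 0.844 at base 13 to 1.17 at base 5.

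For scale, the same ratio was computed on 32534 distinct promoter sequences of 300 bases from RefSeq (build GRCm38.p6). With base frequencies pooled over positions, CpG reached 0.576 of expectation in these promoters and GpC 1.03. The signatures, computed with pooled frequencies too, gave 0.354 for CpG and 0.923 for GpC. In the central 16 bases of the promoters 38.5% held a CpG, against 26.2% of the signatures, which offer a window of the same length. These are different kinds of sequence, and the difference was not tested.

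Most CpG signatures held a single CpG. There were 6696 with 1, 1202 with 2, 207 with 3, 25 with 4 and 7 with 5. Carriers of 2 or more made up 17.7% of CpG signatures, whereas 33.2% of the 18247 signatures with a GpC held 2 or more of them. CpG signatures were also richer in G and C outside the dinucleotide. G and C made up 49.6% of their other bases, against 43.7% outside GpC in GpC signatures. That share rose with the number of CpG, from 48.8% for 1 to 53.3% for 2 and 57.4% for 3 or more.

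The depth of the CpG shortage varied with G and C content, and with palindromes included far more than that of GpC. Signatures with at most 4 G or C among the 16 bases after GATC had a CpG ratio of 0.131, and those with 5 or 6 had 0.195. The ratio was 0.248 with 7 or 8 and 0.325 with 9 or 10. It reached 0.486 among the 3078 signatures with 11 or more, of which 63.7% held a CpG. GpC stayed between 0.804 and 0.944 over the same classes. Without palindromes GpC rose too, from 0.556 in the lowest class to 0.823 in the highest, while CpG rose from 0.122 to 0.392. Bases next to the CpG were uneven too. Given the CpG and the base frequencies at the flanking positions, GCGG occurred at 1.36 times and CCGC at 1.24 times the expected number, and TCGA, the lowest, at 0.739 times. These ratios describe distinct signatures and carry no test.

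Signatures at 1000 CPM or more had a higher CpG ratio than those under 10 CPM in all 3 BLK.CL4 libraries and in 2 of 3 liver libraries, given here without a test of its own. Classes were set by the CPM of each library. In BLK.CL4 the CpG ratio was 0.334 ± 0.0210 under 10 CPM, 0.349 ± 0.0136 from 10 to 100, 0.363 ± 0.0123 from 100 to 1000, and 0.468 ± 0.0120 at 1000 CPM or more (mean ± SD, n = 3). In liver the same classes gave 0.334 ± 0.0163, 0.329 ± 0.0144, 0.337 ± 0.0096 and 0.359 ± 0.0548. At 1000 CPM or more the ratios were 0.472, 0.455 and 0.478 in BLK.CL4 (replicates 1 to 3), beside 0.387, 0.296 and 0.395 in liver. Every BLK.CL4 value lay above every liver value there (exact two-sided permutation test, p = 0.1), with GpC at 0.959 ± 0.0182 and 0.961 ± 0.0526. These classes are small. They held 120 to 143 signatures per BLK.CL4 library and 105 to 126 per liver library, and the 95% exact Poisson intervals, which cover counting error only, were 0.344 to 0.589 in BLK.CL4 replicate 2 and 0.290 to 0.525 in liver replicate 3. The intervals thus overlap between libraries of the groups, and many of the same signatures enter all libraries of a group.

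The comparison set out for abundance, 100 CPM or more against under 10 CPM within each library, did not pass. The mean difference in the CpG ratio was 0.0221 over 6 libraries (exact two-sided sign-flip permutation test, p = 0.0938). The difference was 0.0265, 0.0555 and 0.0329 in BLK.CL4 (replicates 1 to 3), beside 0.00596, 0.0231 and -0.0115 in liver, so it was positive in 5 of 6 libraries. As shares of signatures, CpG carriers made up 38.6%, 39.2% and 39.9% of the class of 1000 CPM or more in BLK.CL4 (replicates 1 to 3), beside 29.4%, 21.9% and 30.2% in liver. Under 10 CPM they made up 24.3% to 27.1% in BLK.CL4 and 24.3% to 28.0% in liver.

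The share of signatures with a CpG was also set out for signatures of both sources and of 1 source alone, without a test. With at least 10 CPM in all 6 libraries, 309 of 945 signatures (32.7%) carried a CpG. Of 751 signatures with at least 10 CPM in every BLK.CL4 library and no count in liver it was 239 (31.8%), and of the 535 in the converse liver set 133 (24.9%). Observed over expected CpG was 0.382 (95% exact Poisson interval 0.344 to 0.422) in the shared set, 0.374 (0.332 to 0.420) in the BLK.CL4 set and 0.306 (0.260 to 0.358) in the liver set, and GpC stood at 0.992, 0.992 and 0.954. The interval of the liver set overlaps those of both other sets. Within the shared set CpG signatures held 37.4% ± 4.14 of the set's counts in BLK.CL4 and 22.9% ± 8.19 in liver.

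By counts, CpG signatures held about as much of liver as of BLK.CL4, but the liver share rested on 1 signature. They made up 33.8%, 30.4% and 35.7% of the counts in BLK.CL4 (replicates 1 to 3), beside 40.2%, 31.1% and 36.1% in liver. The groups overlapped, and the difference of 2.49 percentage points did not stand out from the spread (exact two-sided permutation test, p = 0.4). L1 alone held 21.2%, 14.3% and 13.9% of liver counts and at most 0.00687% of a BLK.CL4 library. Leaving L1 out, the other 8136 CpG signatures held 33.3% ± 2.68 of the counts in BLK.CL4 but 19.3% ± 2.70 in liver, a difference of -13.99 points. L1 was picked for its liver level, so its removal can lower only the liver share appreciably, and no test is given. B1, the most abundant CpG signature of BLK.CL4, held 1.24% ± 0.603 of BLK.CL4 counts. Without both L1 and B1 the shares were 32.05% ± 2.10 and 19.2% ± 2.67. With L1 taken out of the totals as well, the shares were 33.3% ± 2.68 and 23.1% ± 3.18, and those of signatures with a GpC and no CpG 36.4% ± 0.898 and 46.3% ± 0.966. In bulk RNA of this kind fewer cells of a type and less RNA per cell cannot be told apart.

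Signatures with 2 or more CpG took a larger part of BLK.CL4 counts than of liver counts. Their 1441 members held 6.83%, 5.44% and 7.85% in BLK.CL4 replicates 1, 2 and 3, against 3.20%, 2.0% and 3.46% in liver. All BLK.CL4 values were higher (6.71% ± 1.21 against 2.89% ± 0.780, exact permutation p = 0.1). L1 has a single CpG and does not enter this class, but its counts are part of the liver totals and so lower the liver share. No share with L1 out of the totals, and none for signatures with 2 or more GpC, is given for this class. CpG counts in liver were also the more concentrated. L1 made up 52.7%, 46.1% and 38.6% of the CpG counts of liver replicates 1, 2 and 3. The first CpG signature of a BLK.CL4 library made up 3.49% to 4.69%. Counts of signatures with a GpC and no CpG were more concentrated in liver too, so this was not limited to CpG. The first of these made up 11.6% to 12.4% of their counts in liver, against 2.23% to 4.995% in BLK.CL4. The first 10 held 33.5% to 46.8% in liver, against 15.9% to 18.3% in BLK.CL4. In the breadth of their detection CpG signatures resembled the rest. Both sources counted 34.7% of them and 34.2% of all 31075, only BLK.CL4 47.5% and 46.8%, and only liver 17.8% and 18.99%. All 6 libraries held 8.31% of CpG signatures and 7.36% of all. The median total count was 39 for CpG signatures, 37 for those with a GpC and no CpG and 36 for those with neither.

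Levels of single CpG signatures were compared between liver and BLK.CL4 with edgeR on the whole table, which tested 9115 signatures with at least 10 CPM in 2 or more libraries. The filter passed 2506 of the 8137 CpG signatures (30.8%), against 29.3% of all 31075. Of these, 746 (29.8%) had an adjusted p under 0.05, beside 30% of all signatures tested. Higher in liver were 327 (13.05%, against 14.9% of all tested) and higher in BLK.CL4 419 (16.7%, against 15.1% of all tested). The members that could be tested were therefore called about as often as any signature. Scaling by library totals alone, which called 36.5% of all tested, gave 261 higher in liver (10.4%, against 11.5% of all tested) and 695 in BLK.CL4 (27.7%, against 25% of all tested). The part of the calls that were higher in liver fell from 43.8% to 27.3% with that scaling. With the default prior count, the median log2 fold change was -0.92 for CpG signatures and -0.67 for all tested with TMM factors, and -2.39 and -2.13 with library totals. Without the CPM filter, 393 of 8137 CpG signatures were higher in liver (4.83%, against 5.44% of all tested) and 273 in BLK.CL4 (3.36%, against 2.58%), in all 8.18% against 8.01%. DESeq2 called 402 higher in liver (16.04%, against 18.6%) and 624 in BLK.CL4 (24.9%, against 22.7%), in all 40.9% against 41.3%. Without single libraries, 22.6% to 28.96% of the CpG signatures tested were called, beside 22.1% to 28.8% of all tested. Carriers of 3 or more CpG were few. Of 65 tested, 7 were called toward liver (10.8%, against 14.9% of all tested) and 16 toward BLK.CL4 (24.6%, against 15.1%). Without single libraries 6.56% to 10.2% were called toward liver, against 11.1% to 14.4% of all tested. Toward BLK.CL4 it was 15.9% to 26.5%, against 10.3% to 15.9%. In T runs 6 of 57 (10.5%, against 9.48%) were called toward liver and 7 (12.3%, against 8.12%) toward BLK.CL4.

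The highest CpG signatures of liver were nearly absent from the cell line. L1 stood at 211914, 143248 and 139373 CPM in liver replicates 1, 2 and 3 and at 55.0, 68.7 and 4.11 CPM in the BLK.CL4 replicates. By mean CPM it was 3868-fold higher in liver, and the groups lie far apart (edgeR log2 fold change 13.30, SE 1.44, adjusted p = 0.000755). Fitted changes include the TMM factors, 0.475 to 0.743 in liver and 1.61 to 1.72 in BLK.CL4. These factors raise liver relative to the CPM values. L2 was even across liver, at 26684, 23421 and 24127 CPM, against 11.6, 20.5 and 0 CPM in BLK.CL4 (log2 fold change 12.25, SE 1.76, edgeR adjusted p = 0.0020). L5 was the only one of the 5 most abundant liver CpG signatures with a sizeable level in the cell line, at 6182, 2559 and 6166 CPM in liver and 504, 384 and 628 CPM in BLK.CL4. The groups did not overlap, and L5 was 9.83-fold higher in liver by CPM (fitted log2 fold change 4.72, SE 0.58, edgeR adjusted p = 0.00115). These 5 were picked for their liver level, so neither the lack of overlap nor the adjusted p adds support.

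L3 and L4 each differ from a more abundant CpG signature by 1 base, with positions counted from 1 at the first base of GATC. L3 is L2 with A20C, and L4 is L1 with A15G. L4 had 6915, 6847 and 2054 CPM in liver and no count in BLK.CL4. That puts it at least 3578-fold higher in liver by CPM, or 10839-fold after TMM scaling (edgeR adjusted p = 0.000777). Its counts came to 3.26%, 4.78% and 1.47% of those of L1 in liver replicates 1, 2 and 3. L3 was uneven, at 1263, 10702 and 10029 CPM in liver, or 4.73%, 45.7% and 41.6% of L2. Replicate 1 stood far below the other liver libraries, while L2 itself hardly varied. T runs gave 4548 counts of L3 and TH runs 43564, while L2 had 91862 and 60060. The part of the neighbouring signature in the counts of L3 and L4 was not tested. L6 and L7 had no count in any BLK.CL4 library, and passing the test was a condition for naming them. L6 stood at 3392, 2367 and 3737 CPM in liver, at least 2148-fold higher by CPM or 5917-fold after TMM scaling. L7 stood at 2126, 2906 and 3422 CPM, at least 1912-fold higher by CPM or 5393-fold after TMM scaling. The edgeR adjusted p was 0.000665 for each. L7 was counted only in TH runs (17845 counts), and holds palindromes at positions 11 and 15. A signature 1 base away from L7 had a total count of 49607. The part of that signature in the counts of L7 was not tested.

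In the cell line the most abundant CpG signatures were mostly shared with liver. They were picked for their BLK.CL4 level, so a test toward BLK.CL4 adds no support. B1, the highest, stood at 14959, 5521 and 16749 CPM in the BLK.CL4 libraries, against 1234, 814 and 1297 CPM in liver. The mean CPM of BLK.CL4 was 11.1-fold that of liver, and the fitted log2 fold change with TMM factors was -2.0 (SE 0.57, edgeR adjusted p = 0.0380). It no longer passed when BLK.CL4 replicate 1 or 3, or any 1 liver library, was left out, with edgeR adjusted p of 0.0712 to 0.0927. B2 had 6634, 6984 and 8640 CPM in the BLK.CL4 libraries, against 42.9, 163 and 414 CPM in liver, a 35.9-fold ratio of CPM (log2 fold change -3.77, SE 0.79, edgeR adjusted p = 0.0125), but did not pass in TH runs alone (adjusted p = 0.0882). B4, which holds 3 CpG, had 7608, 2834 and 8020 CPM in the BLK.CL4 libraries, against 474, 239 and 447 CPM in liver, 15.9-fold apart by CPM (log2 fold change -2.53, SE 0.59, edgeR adjusted p = 0.0188, and 0.0514 without liver replicate 3). All 40130 counts of B4 came from TH runs, and palindromes start at its bases 6, 11 and 14.

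B5 and S1 did not pass the test. B5 had 6272, 5097 and 6832 CPM in the BLK.CL4 libraries, against 1417, 513 and 1326 CPM in liver. These values do not overlap and are 5.59-fold apart by CPM, yet the fitted log2 fold change was -1.06 (SE 0.51, edgeR adjusted p = 0.149), and with library totals it was -2.48 (adjusted p = 0.0156). T runs gave 35397 counts of B5 and TH runs 8571, and a signature 1 base away from B5 had a total count of 21986. S1, with CpG at bases 8 and 19, had 6341, 3003 and 8092 CPM in the BLK.CL4 libraries, against 2470, 1165 and 2579 CPM in liver. Its CPM values do not overlap and are 2.81-fold apart, and the fitted log2 fold change was -0.05 (SE 0.54, edgeR adjusted p = 0.965), with either sign over the alternatives tried. The TMM factors, 1.61 to 1.72 in BLK.CL4 and 0.475 to 0.743 in liver, move both toward liver relative to the CPM ratio.

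The CpG signatures with the largest changes toward BLK.CL4, named only if they passed the test, had no or hardly any count in liver. B3 reached 6077, 10615 and 4345 CPM in the cell line and had no count in liver, so that it exceeded liver at least 4711-fold by CPM, or at least 1652-fold after TMM scaling (edgeR adjusted p = 0.000688). B6 had 3100, 1861 and 3214 CPM, at least 1831-fold by CPM or 632-fold after TMM scaling. B7 had 1218, 1889 and 666 CPM, at least 845-fold by CPM or 296-fold after TMM scaling. Neither had a count in liver. B8 was the most even, at 1073, 1048 and 1111 CPM in the cell line and none in liver. That is at least 724-fold by CPM or 251-fold after TMM scaling (edgeR adjusted p = 0.000779). B9 is B3 with G20A. It had 1198, 1106 and 495 CPM, or 19.7%, 10.4% and 11.4% of B3, and all its 5617 counts came from TH runs, whereas B3 had 24654 counts in T and 18115 in TH runs. B10 had 4567, 7410 and 1880 CPM in the cell line and, of the liver libraries, 15.5 CPM in replicate 2 alone (log2 fold change -7.76, SE 2.01, edgeR adjusted p = 0.0250). It did not pass without BLK.CL4 replicate 2 (adjusted p = 0.0521) or in T runs (0.0646), where it had 975 counts, against 27003 in TH runs. Palindromes start at its bases 3 and 6.

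The 4 signatures shown with 5 CpG were rare, and each was counted in 1 or 2 BLK.CL4 libraries. M1 stood at 31.5 CPM and M3 at 26.5 CPM in BLK.CL4 replicate 3, and neither was counted elsewhere. M4 had 17.1 CPM in BLK.CL4 replicate 2 only. M2 had 26.5 CPM in BLK.CL4 replicate 1 and 1.83 CPM in replicate 3. None was counted in liver, and none entered the test.

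Many CpG signatures with a palindrome had no count in one of the run types. A 4-base palindrome reads the same on both strands. All 16 were searched at start positions 3 to 17. At least 1 was found in 38.8% of the 31075 signatures and in 3952 CpG signatures (48.6%), and in 2287 of these CpG signatures the palindrome itself holds a CpG. Of the palindromes with a CpG, CCGG occurred in 861, TCGA in 478, ACGT in 468, GCGC in 419 and CGCG in 214 CpG signatures. Of the others, GGCC occurred in 568, AGCT in 392, TGCA in 368, CATG in 357, GTAC in 221 and AATT in 163. The rarest were CTAG in 161, TTAA in 114, ATAT in 102, TATA in 66 and GATC in 6. Of 917 CpG signatures with a palindrome starting at base 3, 7, 11 or 15 and none at 4, 8, 12 or 16, 83.1% had no count in any T run, and 3.82% had none in any TH run. In the reverse case, 1030 signatures, the shares were 4.85% and 83.3%. With palindromes only at other positions they were 20.9% and 20.0%, and with none 22.9% and 17.0%. Signatures with a GpC and no CpG lost counts in the same way, at 84.0% of 1372 without T counts and 82.7% of 1202 without TH counts. Among CpG signatures with a total of 100 or more the shares were 69.0% of 277 and 70.7% of 270, against 10.3% and 6.04% of 1208 without a palindrome. These positions were found earlier on the same data, and the shares are a description.

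Without any signature that holds such a palindrome, 4185 CpG signatures remained of 19018, and CpG stayed below GpC in all 6 libraries. Observed over expected CpG was 0.266 ± 0.0115 in liver and 0.279 ± 0.0121 in BLK.CL4, and GpC 0.797 ± 0.0232 and 0.796 ± 0.0046. Both dinucleotides occur in 5 of the 16 palindromes, so leaving these out lowers both. The mean log2 ratio of CpG to GpC was -1.55 ± 0.0590 over the 6 libraries (exact sign-flip permutation p = 0.0312). At 1000 CPM or more the CpG ratio was 0.354 ± 0.0197 in BLK.CL4 and 0.254 ± 0.0734 in liver, again without overlap (exact permutation p = 0.1). Under 10 CPM it was 0.268 ± 0.0211 and 0.270 ± 0.0127, so that the liver mean was here the lower in the most abundant class. From 100 to 1000 CPM it was 0.314 ± 0.0091 and 0.248 ± 0.0067, also without overlap (exact permutation p = 0.1). By counts, CpG signatures without palindromes held 17.9% ± 1.26 of BLK.CL4 and 24.0% ± 4.48 of liver, without overlap (exact permutation p = 0.1), and 17.9% ± 1.26 and 7.48% ± 1.14 once L1, which holds no palindrome, was left out. Those with a palindrome held 15.4% ± 1.46 of BLK.CL4 and 11.8% ± 1.69 of liver counts. Each run type was also tested alone. In T runs 187 of 2098 CpG signatures were higher in liver (8.91%, against 9.48% of all tested) and 199 in BLK.CL4 (9.49%, against 8.12%), in all 18.4% against 17.6%. In TH runs it was 198 of 2186 (9.06%, against 10.7%) and 175 (8.01%, against 6.63%), in all 17.1% against 17.3%. The members again passed at about the rate of all signatures. In the edgeR fit without palindromes, which called 28% of all tested, 154 of 1284 CpG signatures tested were higher in liver (12.0%, against 14.6% of all tested) and 186 in BLK.CL4 (14.5%, against 13.4%).

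Signatures 1 base away from a CpG signature were more often listed than for GpC. For each of the 9856 CpG, the signature with CpA in its place was listed in 4.47% of cases and the one with TpG in 3.03%. CpC and CpT stood at 3.16% and 3.10%, and ApG and GpG at 1.53% and 1.67%. For the 25706 GpC, GpT was listed in 2.86%, ApC in 1.90% and the other 4 changes in 1.02% to 1.89%. For CpG, changes of the G were thus listed more often than changes of the C, and not only those to TpG or CpA. For GpC, changes of the C stood at 1.42% to 2.86% and changes of the G at 1.02% to 1.90%. A lean toward the second base was therefore not limited to CpG. Of the CpG signatures, 981 (12.1%) lay 1 base from a signature with at least 20 times their total count, against 8.63% of those with a GpC and no CpG and 7.77% of those with neither. In an edgeR fit without all such signatures, 281 of 2362 CpG signatures tested were higher in liver (11.9%, against 14.1% of all tested). Higher in BLK.CL4 were 419 (17.7%, against 16.0%), in all 29.6% against 30.1%. The difference in count share, liver minus BLK.CL4, was then 1.51 points (exact permutation p = 0.8). Without all such signatures the mean CpG ratio over the 6 libraries was 0.335, against 0.339 with them.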

How the data were processed

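The authors deposited, per the file headers, raw MPSS bead counts per 20-base signature, with 1 column for each of 4 runs of a library. The base caller and any filter used upstream are not given in the sources used here. For each library its 4 runs were added up and divided by the library's total over all signatures to give CPM. Observed over expected dinucleotides were computed over start positions 5 to 19 with the base frequencies of each position. A shortage of CpG also lowers the frequencies of C and G, so this ratio understates it. Poisson intervals cover counting error only. Groups were compared with exact two-sided permutation tests in scipy 1.17.1 (Python 3.11.15, pandas 2.3.3, numpy 2.4.6).

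Levels were tested with edgeR 4.0.16 (R 4.3.3), using its quasi-likelihood test with TMM factors on all signatures of at least 10 CPM in 2 or more libraries, with Benjamini-Hochberg adjustment over all signatures tested and a threshold of 0.05. Fitted log2 fold changes of named signatures use a prior count of 5. The printed SE was derived from the test statistic and the fold change with the default prior count. It is therefore not the SE of the printed fold change itself. Where a group had no count, a floor of 3 counts in each library gives the bound. The scripts were tested on simulated data. Named were, in each direction, the 6 CpG signatures with the largest fitted change that passed without overlap between the groups. For these the adjusted p was part of the choice and adds no support. Those with no count in a group met the CPM filter through the other group alone. Added were the 5 highest in each group, the 4 highest of those at 10 CPM or more in all 6 libraries, and the 4 with the most CpG. For the 5 highest in a group, the level there was the choice, so an adjusted p toward it adds no support either. The members and lists were chosen with earlier results of these data known. Alternatives were DESeq2 1.42.0, library totals, T or TH runs only, other count minimums, pooled base frequencies, weighting by counts, and leaving out palindromes, 1-base neighbours or each library. Leaving out L1 or both L1 and B1, weighting by counts without L1, the mean ratio over 6 libraries and the test without 1-base neighbours were chosen after seeing the data. Promoter sequences came from RefSeq (GRCm38.p6). Signatures were not matched to transcripts.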

Additional observations from a re-analysis of the deposited data

How the results depend on the processing

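The log2 ratio of CpG to GpC kept its sign under all alternatives tried, and lay between -1.53 and -1.50 without single libraries, where 5 libraries cannot give a p under 0.0625. The mean CpG ratio over 6 libraries, 0.339, moved to 0.272 without palindromes, 0.357 with pooled base frequencies, 0.396 weighted by counts, and 0.362 weighted without L1. Leaving out single libraries gave -0.0220 to -0.0052 for its difference between groups and 0.0154 to 0.0288 for abundant minus rare signatures. The difference in count share, 2.49 points, turned to -13.99 without L1 and -12.86 without L1 and B1, and ranged from 0.296 to 4.83 without single libraries. Called CpG signatures fell from 746 to 386 in T runs, 373 in TH runs and 340 without palindromes, each fitted on fewer counts or signatures, beside 17.6%, 17.3% and 28% of all tested. Those higher in liver numbered 187, 198 and 154 in these fits, beside 9.48%, 10.7% and 14.6% of all tested. Those higher in BLK.CL4 numbered 199, 175 and 186, beside 8.12%, 6.63% and 13.4% of all tested. Higher in BLK.CL4 were 695 with library totals (27.7%, against 25% of all tested) and 273 with no filter on CPM (3.36%, against 2.58% of all tested). Without single libraries 524 to 623 were called in either direction, beside 22.1% to 28.8% of all tested. Higher in liver were 234 to 296 (10.1% to 12.4%, against 11.1% to 14.4% of all tested). Higher in BLK.CL4 were 284 to 371 (12.1% to 17.4%, against 10.3% to 15.9% of all tested). Calls higher in liver made up 43.8% of CpG calls with TMM factors, 27.3% with library totals, 59.0% without the filter, 53.1% in TH runs and 39.2% with DESeq2, which called 1026. No signature called in both the reported test and an alternative had the opposite direction. Of 220 comparisons over 18 tested named signatures 207 kept direction and side of the threshold, 9 lost the call and 1, B5 with library totals, gained it. S1 changed sign in 3, at 0.27 without BLK.CL4 replicate 3, 0.12 without liver replicate 2 and 0.012 without palindromes, and ranged from -0.35 to 0.27 without single libraries, with -1.49 under library totals the lowest of all. The causes were not tested. No paired analysis was possible because the labels give no replicate numbers, and those used here only name libraries in accession order. Depth limits signatures under about 1.5 CPM, the level of 3 counts.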
